A study of Mus musculus with 4 samples.

Results

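The late cornified envelope (Lce) and small proline-rich (Sprr) genes were examined in the epidermis of newborn mice lacking the RNA helicase Skiv2l in keratinocytes. All genes whose deposited name starts with Lce or Sprr followed by a digit were taken, which gave 38 of the 54752 genes in the tables. They comprise 14 Lce1, 6 Lce3, 1 Lce6, 2 Sprr1, 13 Sprr2, 1 Sprr3 and 1 Sprr4 genes. All 38 lie within 803.3 kb of chromosome 3 (GRCm38, chr3:92215799-93019060), with the Sprr genes first and the Lce genes after them.

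Total RNA was sequenced from the epidermis of 4 C57BL/6 pups at postnatal day 0. The comparison was between Skiv2l ctl (n = 2 pups) and Skiv2l fl/fl K14-Cre (n = 2 pups). In the second genotype, Cre recombinase driven by the keratin 14 promoter deletes the floxed Skiv2l alleles in keratinocytes, and cells that do not use this promoter, such as melanocytes and immune cells, are not targeted. The name Skiv2l ctl covers littermates that were Skiv2l fl/fl, Skiv2l fl/+ or Skiv2l fl/+ K14-Cre, and which of these each control pup was is not given in the sources used here. The labels name no treatment for either group.

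The cornified envelope is a shell of cross-linked protein that replaces the plasma membrane of keratinocytes as they die at the surface of the epidermis. Transglutaminases join loricrin, involucrin, filaggrin and other precursors into it, and the SPRR proteins act as short cross-bridges whose share sets how flexible the shell is. LCE proteins are small, rich in cysteine and glycine, and are added late. Lce1 genes belong to the normal program of interfollicular epidermis. LCE3 genes and the SPRR1 and SPRR2 genes are known to be low in undisturbed skin and to be induced by wounding, barrier damage and psoriasis, and SPRR3 belongs to internal squamous epithelia such as the esophagus.

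Values are FPKM, fragment numbers divided by transcript length and library size, which allows levels to be compared between genes of different length. Fold changes (log2) are differences of log2(FPKM + 1), knockout minus control, and understate the change of genes with low FPKM. Ratios are of mean FPKM without the added 1. A gene is called higher or lower when limma gives an adjusted p under 0.05 over 13609 genes, those that are protein-coding and exceed 0.5 FPKM in 1 or more libraries. The smallest two-sided p that an exact permutation test can give for 1 gene with this design is 0.333, and calls therefore rest on limma's estimate of spread, which borrows from all genes. Nothing in the labels says that the pups of a genotype came from separate litters, and p-values measure the spread between these pups.

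Skiv2l itself was 19.3 and 19.1 FPKM in control and 10.9 and 8.55 FPKM in knockout epidermis, a log2 fold change of -0.92 (SE, the standard error, 0.12, adjusted p = 0.00368 by limma). Both knockout libraries were below both controls, although with either control left out the adjusted p was 0.0562 or 0.0547. The ratio of coverage to FPKM, which under the usual definition of these units is the aligned sequence in gigabases, was 5.84 to 6.27 in the 4 libraries. The median log2 fold change of all tested genes was -0.20, and scaling each library to the same median brought it to -0.03. On that scale calls numbered 1894 upward and 1623 downward, in place of 1223 and 3455. Keratinocyte markers were abundant in both genotypes, as the epidermis label requires. The summed FPKM of 6 basal keratinocyte markers was 4640 and 4791 in control pups, against 9713 and 9702 in knockout pups, a difference that came from Krt14 (1736 and 1812, then 7381 and 7312), while Krt15 was called lower and the list's median log2 fold change was -0.12. That of 6 suprabasal markers, Krt1 and Krt10 among them, was 24360 and 25900 against 16980 and 20540. The 6 granular keratinocyte markers summed to 6937 and 6324 against 5614 and 5016, with a median log2 fold change of -0.41. Among them Tgm3 was called higher, Lor, Flg2 and Casp14 were called lower, and Flg and Hrnr were not called. All 4 endothelial markers together stayed between 0.495 and 0.75 FPKM, 5 skeletal muscle markers between 0.315 and 0.849, and 8 leukocyte markers between 6.17 and 8.31, with Ly6g and Elane listed at 0 in every library. The 6 dermal fibroblast markers summed to 61.3 and 69.0 FPKM in the control libraries, compared with 21.9 and 25.0 in the knockout libraries, most of it Dcn (57.0 and 62.7, then 16.9 and 21.4), and the list's median was -0.11. The 10 hair follicle markers summed to 67.5 and 102.5 in control and 48.2 and 49.3 in knockout epidermis, and the 5 melanocyte markers to 47.5 to 63.5 in all 4. The part of these markers in the results that follow was not tested.

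Upstream sequences of the members on which the results turn are shown first. RefSeq gives the 250 bases before the annotated start for 34 of the 38 members (GRCm38.p6), and Lce1f, Sprr2g, Sprr2c-ps and Sprr2j-ps had no entry. The bases printed are the last 200 before the start, on the strand of the gene, shortened at the right where the GENCODE M21 transcript begins further upstream. In capitals are the TATA box (TATAAA), the AP-1 site bound by Fos and Jun proteins (TGANTCA), the octamer bound by POU factors (ATTTGCAT) and the core of the antioxidant response element bound by Nrf2 (TGACNNNGC), each searched on both strands.

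Sprr2i had the largest fold change of the Sprr2 genes and Sprr2h the smallest, and both carry the same 3 elements in the same order. Sprr2i is shown at chr3:92407791-92407990 (plus strand) and Sprr2h at chr3:92385485-92385684 (plus strand).
Sprr2i: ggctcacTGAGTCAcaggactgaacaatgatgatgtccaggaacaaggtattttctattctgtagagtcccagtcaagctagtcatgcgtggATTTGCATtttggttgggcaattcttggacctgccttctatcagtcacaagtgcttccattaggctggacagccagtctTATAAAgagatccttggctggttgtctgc
Sprr2h: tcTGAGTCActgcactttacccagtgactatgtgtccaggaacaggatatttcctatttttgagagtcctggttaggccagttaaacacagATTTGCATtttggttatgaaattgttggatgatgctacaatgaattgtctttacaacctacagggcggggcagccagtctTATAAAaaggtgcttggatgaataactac

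The 2 Sprr1 genes lie on the minus strand between Sprr2 and Sprr4. In Sprr1a the antioxidant element overlaps an AP-1 site, so the first run of capitals holds both. Sprr1a is shown at chr3:92485896-92486081 (minus strand) and Sprr1b at chr3:92438790-92438979 (minus strand).
Sprr1a: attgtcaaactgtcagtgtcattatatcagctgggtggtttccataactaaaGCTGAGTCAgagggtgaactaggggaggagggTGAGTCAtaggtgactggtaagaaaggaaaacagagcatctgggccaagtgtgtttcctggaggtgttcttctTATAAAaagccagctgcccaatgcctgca
Sprr1b: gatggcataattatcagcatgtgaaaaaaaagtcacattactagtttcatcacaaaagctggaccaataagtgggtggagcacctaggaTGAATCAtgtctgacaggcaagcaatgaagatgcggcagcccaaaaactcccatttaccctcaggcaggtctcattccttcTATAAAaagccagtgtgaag

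Of the Lce3 genes, Lce3b is shown as the member with the largest difference of log2(FPKM + 1), and Lce3c and Lce3e for the stretch GCTCTGTCA that they share with Lce3d at nearly the same distance from the start. They lie at chr3:92932779-92932978 (plus strand), chr3:92944286-92944485 (plus strand) and chr3:92966861-92967060 (plus strand).
Lce3b: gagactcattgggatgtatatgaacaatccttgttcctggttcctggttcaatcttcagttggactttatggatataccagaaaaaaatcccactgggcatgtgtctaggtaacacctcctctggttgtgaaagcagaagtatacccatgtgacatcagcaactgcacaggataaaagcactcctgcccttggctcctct
Lce3c: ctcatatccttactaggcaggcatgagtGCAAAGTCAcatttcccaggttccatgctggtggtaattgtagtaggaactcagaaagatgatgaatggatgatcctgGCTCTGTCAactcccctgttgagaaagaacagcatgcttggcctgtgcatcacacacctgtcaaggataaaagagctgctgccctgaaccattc
Lce3e: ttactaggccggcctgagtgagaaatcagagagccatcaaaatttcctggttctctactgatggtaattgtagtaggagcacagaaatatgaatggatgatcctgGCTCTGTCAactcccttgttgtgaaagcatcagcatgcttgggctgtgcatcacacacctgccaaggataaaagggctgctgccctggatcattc

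Lce1m, the member with the largest fall, is shown beside Lce1d, which did not pass the test. They lie at chr3:93019062-93019261 (minus strand) and chr3:92687211-92687410 (minus strand).
Lce1m: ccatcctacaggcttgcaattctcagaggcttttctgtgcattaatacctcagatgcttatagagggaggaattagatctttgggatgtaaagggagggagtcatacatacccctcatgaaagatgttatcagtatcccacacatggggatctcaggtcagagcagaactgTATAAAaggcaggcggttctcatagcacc
Lce1d: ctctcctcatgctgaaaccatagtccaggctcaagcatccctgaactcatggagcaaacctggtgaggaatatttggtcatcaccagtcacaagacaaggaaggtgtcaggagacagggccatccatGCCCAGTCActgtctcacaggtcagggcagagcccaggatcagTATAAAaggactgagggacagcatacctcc

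The arrangement of an AP-1 site within bases -198 to -187 from the start, an octamer that begins at base -112 to -108 and a TATA box that begins at base -29 recurred in 7 of the 10 Sprr2 promoters in the table, those of Sprr2b, Sprr2d, Sprr2e, Sprr2f, Sprr2h, Sprr2i and Sprr2k. All 3 were unmatched in the entries of Sprr2a1, Sprr2a2 and Sprr2a3. For these genes the RefSeq start is not the start of a GENCODE M21 transcript, and the Sprr2a1 and Sprr2a2 entries are 100% identical. The bases searched may therefore not be those before the start in use, and a lack of the arrangement in these genes is not shown. The RefSeq start also was not a GENCODE M21 transcript start for Sprr2b, Sprr1a, Sprr1b, Lce3f and Lce1m. Distances from the start in these genes may therefore differ with the start used. AP-1 letters were found in 9 of 34 member promoters (26.5%), against 6.75% of all 32851 promoters in the table. These were the 7 Sprr2 genes with the arrangement and both Sprr1 genes. The octamer was in 7 of 34 (20.6%, against 1.60% of all) and the letters of the TATA box in 14 of 34 (41.2%, against 12.4% of all). In Lce6a and Lce3e these letters were on the opposite strand and began at bases -218 and -243, further upstream than in the other members. The antioxidant element was in 7 of 34, against 10.2% of all, and those 7 were Sprr2f, Sprr1a, Lce6a, Lce1d, Lce3c, Lce3d and Lce3e. No Lce promoter had a match to the AP-1 or octamer letters. Of the other letters searched, the CRE (TGACGTCA), the Grhl site (AACCNGTT), the Ets site (CCGGAA) and the NF-kB site (GGGANTTCC) had no match in any member. Their shares of all promoters were 1.55%, 1.79%, 12.0% and 1.43%. The Klf box (CACCC) was in 12 of 34 (35.3%, against 52.0% of all). The C/EBP site (TTGCNNAA) was in 2 of 34 (5.88%, against 9.56% of all). The Sprr2 genes are neighbouring copies of one another, so these matches are not independent, and a match to a few letters is not a site in use.

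**Figure D1:**
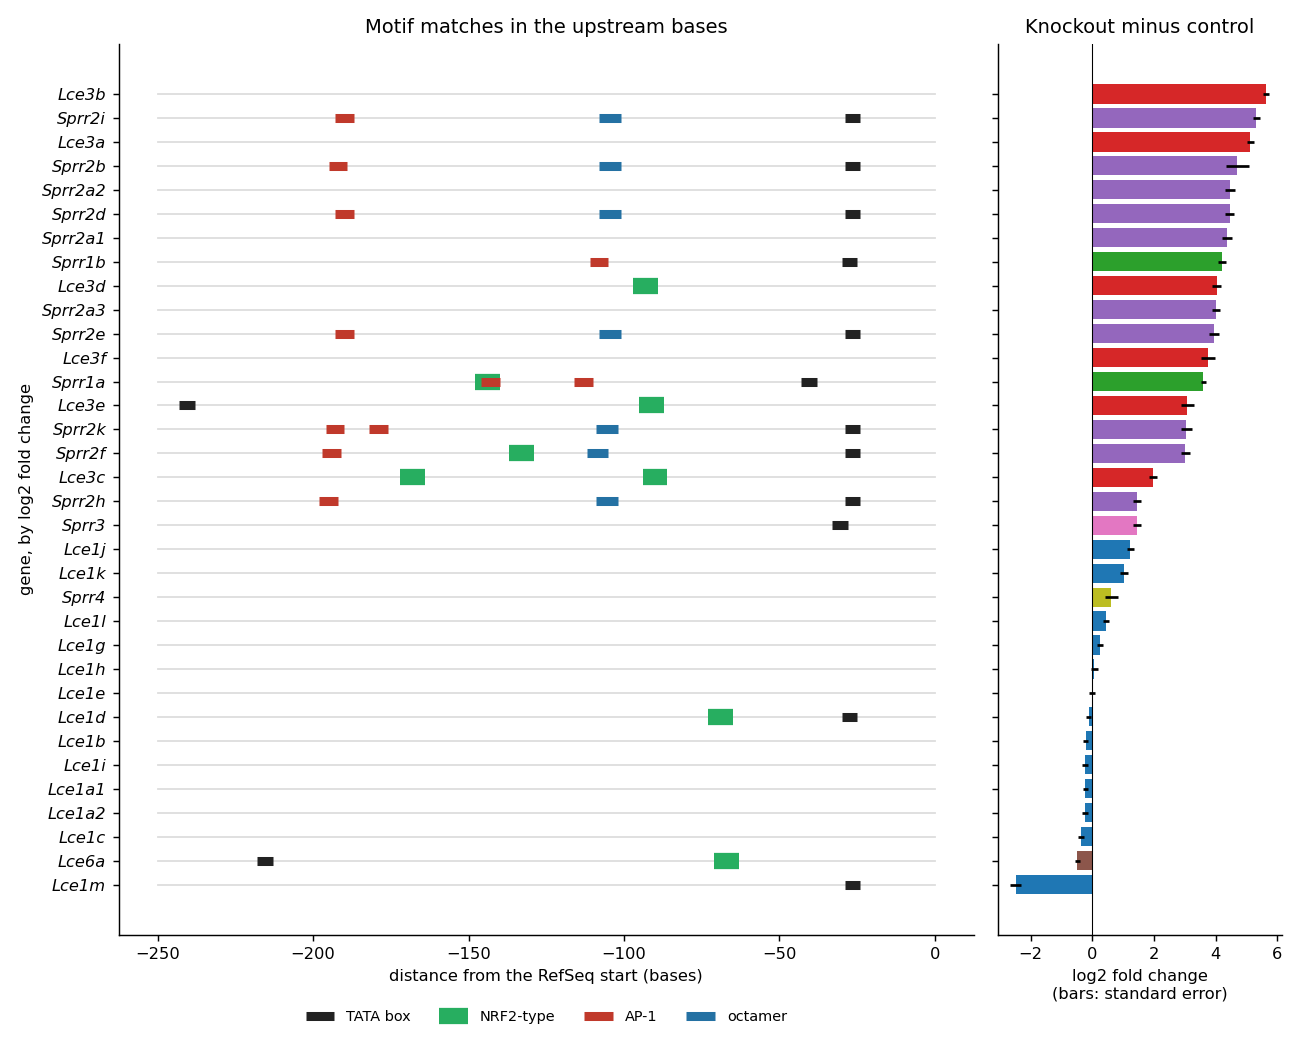
Matches to the TATA box, AP-1, octamer and antioxidant (NRF2-type) letters in the 250 bases before the RefSeq start (x axis, bases) of the tested members with a promoter entry, ordered by log2 fold change, with the fold change and its standard error at the right, coloured by subfamily. The 7 Sprr2 genes with the 3-element arrangement run from Sprr2i at 5.32 to Sprr2h at 1.46. Among them, Sprr2f also has an antioxidant match and Sprr2k another AP-1 match. A link of matches to fold change was not tested.

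In both genotypes the family was expressed strongly, with a higher total in the knockouts and a smaller part of it from Lce1. The summed FPKM of the 38 genes was 3413 and 3221 in control pups, against 9252 and 9143 in knockout pups, a ratio of means of 2.77. They made up 0.948% and 0.876% of all FPKM in the control libraries and 2.48% and 2.41% in the knockouts. Lce1 genes supplied 85.0% and 86.1% of the family's FPKM in the control libraries, compared with 25.0% and 23.5% in the knockout libraries. Sprr2 genes supplied 7.43% and 5.94% in control and 49.7% and 52.7% in knockout epidermis, of which Sprr2a2 alone, a gene whose FPKM is uncertain, was 35.6% and 37.2% in the knockouts and the other 12 Sprr2 genes 14.1% and 15.5%. Which subfamily led in the knockouts depends on that gene, since the 12 others summed to 1308 and 1415 FPKM there, below Lce1 at 2313 and 2145. In bulk RNA, fewer cells of a type and less RNA per cell cannot be told apart, and the same holds for more of either.

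Of the 38 members, 36 were tested, and Sprr2g and Sprr2c-ps were left out because GENCODE M21 lists them as pseudogenes. Sprr2c-ps also did not exceed 0.5 FPKM in any library. Of the 36, 23 were called higher in the knockouts (63.9%, against 8.99% of all tested genes called higher). Another 3 were called lower (8.33%, against 25.4% of all tested genes called lower) and 10 were not called. The median log2 fold change of the 36 was 1.71, beside -0.20 for all tested genes. Both knockouts were above both controls for 25 of the 36 (against 18.2% of all tested genes) and below both for 9 (against 55.3%), and the groups overlapped for 2. Sprr2k, Sprr2j-ps, Sprr3 and Lce3a passed the filter on low values only through the knockouts, so a rise was built into their selection, and 32 passed it in a control as well. Called higher were all 11 tested Sprr2 genes, both Sprr1 genes, Sprr3, all 6 Lce3 genes, Lce1j, Lce1k and Lce1l. Called lower were Lce1m, Lce1c and Lce6a.

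**Figure D2:**
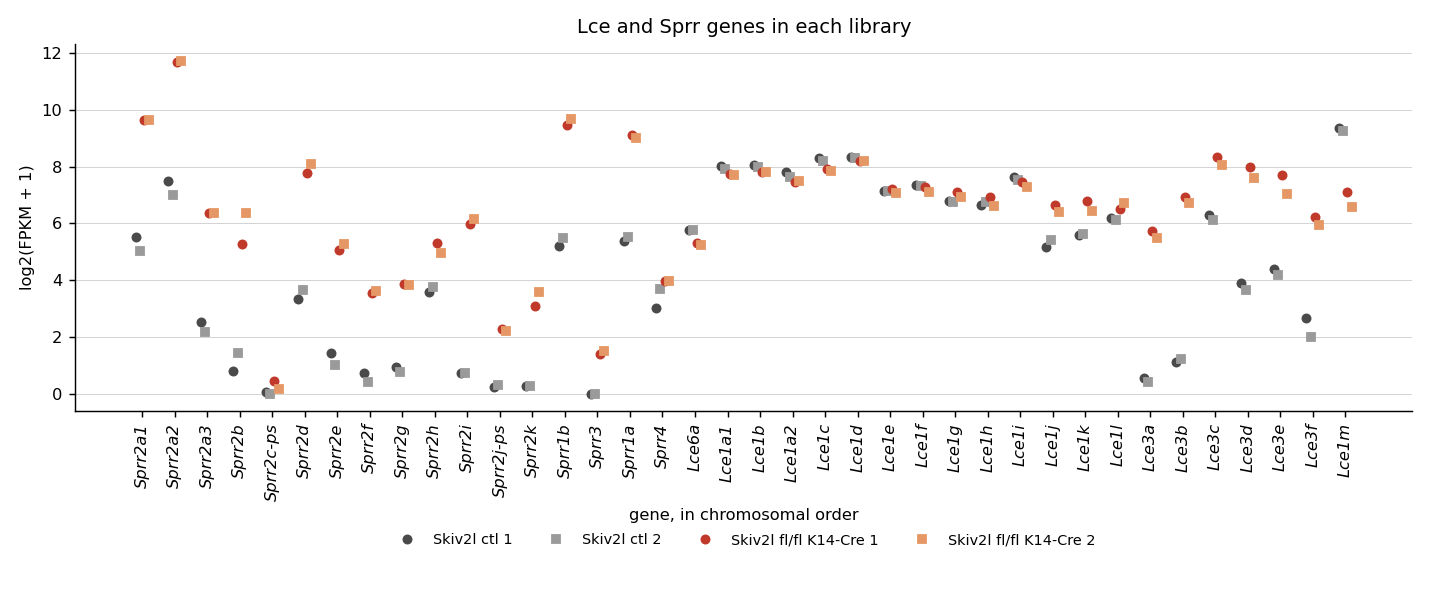
Level of each member in each of the 4 libraries as log2(FPKM + 1), in the order of the genes along chromosome 3. Control points (grey) and knockout points (red and orange) stand apart for the Sprr2, Sprr1 and Lce3 genes and lie close together for most Lce1 genes, and Lce1m at the right end goes from 655 and 614 FPKM to 136 and 93.7 FPKM.

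Sprr2 genes encode the most numerous group of the short cross-bridging proteins. All 13 were higher in both knockouts than in both controls, and the 11 tested had log2 fold changes from 1.46 to 5.32 with a median of 4.01. Of the 13, Sprr2c-ps was near 0 throughout, at 0.054 and 0 FPKM in control and 0.353 and 0.114 in knockout epidermis. Sprr2a2 (ENSMUSG00000068893.5) was the most abundant member in the knockouts, with 3291 and 3402 FPKM against 178 and 127 in the controls (log2 fold change 4.47, SE 0.16, adjusted p = 5.14e-05 by limma). It went from rank 245 to rank 7 by mean FPKM among the 13609 tested genes. Sprr2a1 was 45.2 and 32.1 FPKM in control pups, against 798 and 801 in knockout pups, and Sprr2a3 was 4.80 and 3.58 in the control libraries, compared with 82.3 and 81.8 in the knockout libraries. For each of these 3 genes the knockouts lay close to each other, the controls differed from each other by more in proportion, and the genotypes did not overlap.

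How FPKM is divided among Sprr2a1, Sprr2a2 and Sprr2a3 is uncertain. Of the 75-base stretches of their transcripts, 94.3%, 94.7% and 47.5% occur in another gene, almost always in one of the same 3. Sprr2a2 is annotated from 92215920 to 92256724 and contains most of Sprr2a1 (92215799 to 92221911) on the same strand. Its coverage divided by FPKM was 0.715 to 0.795, against 5.84 to 6.27 for the libraries, so its FPKM is high for the read depth over the gene. Without Sprr2a2 the summed Sprr2 FPKM was 75.3 and 64.7 in control and 1308 and 1415 in knockout epidermis, and with it 254 and 191 in control pups, against 4599 and 4817 in knockout pups. The ratio of means was 19.4 without it and 21.2 with it. Most of the remaining knockout sum is Sprr2a1, which shares most of its stretches with Sprr2a2, so leaving out Sprr2a2 does not free the ratio of shared sequence. The place of the subfamily above Lce1 in the knockouts turned on Sprr2a2. Without Sprr2a2 the family total was 3234 and 3095 in the control libraries, compared with 5961 and 5741 in the knockout libraries.

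The other Sprr2 genes share little or no sequence with each other at this length, 6.08% of the stretches at most. Sprr2d was 9.11 and 11.6 FPKM in control and 220 and 273 in knockout epidermis, with a log2 fold change of 4.45 (SE 0.15). Sprr2i (ENSMUSG00000042157.2, chr3:92407991-92409271, plus strand) was 0.671 and 0.676 in control pups, against 62.3 and 69.5 in knockout pups, a ratio of means of 97.9. Sprr2b was 0.75 and 1.71 in the control libraries, compared with 37.7 and 81.5 in the knockout libraries. Both knockouts were far above the controls for all 3, but the 2 knockout pups differed more for Sprr2b, whose standard error of 0.37 was the largest of all members.

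Sprr2e was 1.70 and 1.05 FPKM in control and 32.7 and 37.9 in knockout epidermis, and Sprr2f was 0.657 and 0.328 in control pups, against 10.8 and 11.2 in knockout pups. Sprr2k was 0.215 and 0.212 in the control libraries, compared with 7.49 and 10.9 in the knockout libraries. Sprr2j-ps, named as a pseudogene in the tables but typed as protein-coding by GENCODE M21, was 0.184 and 0.246 in control and 3.92 and 3.61 in knockout epidermis. These 4 were scarce in control epidermis and stayed among the less abundant members in the knockouts. Sprr2k and Sprr2j-ps passed the filter on low values only through the knockouts, so a rise was built into their selection. Sprr2h was the exception in size, with 11.1 and 12.6 FPKM in control pups, against 38.3 and 30.4 in knockout pups, a ratio of means of 2.91 (log2 fold change 1.46, SE 0.13, adjusted p = 0.00109 by limma). In the controls its level was close to that of Sprr2d, and in the knockouts Sprr2d was far higher.

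Sprr1a and Sprr1b encode the cross-bridging proteins of stratified epithelia that are typically switched on in stressed keratinocytes. Sprr1b (ENSMUSG00000048455.9, chr3:92436809-92438789, minus strand) was 36.3 and 44.0 FPKM in the control libraries, compared with 706 and 811 in the knockout libraries (log2 fold change 4.21, SE 0.12, adjusted p = 2.75e-05 by limma). Sprr1a (ENSMUSG00000050359.7, chr3:92483952-92485895, minus strand) was 41.1 and 45.3 in control and 550.4 and 519 in knockout epidermis (log2 fold change 3.60, SE 0.09, adjusted p = 1.36e-05 by limma). The genotypes did not overlap for either gene, and neither shares a 75-base stretch with another gene. The ratio of the group means of their summed FPKM was 15.5.

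Sprr3, the member of internal squamous epithelia, was listed at 0 in both controls and at 1.66 and 1.82 FPKM in the knockouts. It was called higher (limma adjusted p = 0.00123), but it passed the filter on low values only through the knockouts. A rise was thus built into its selection. No ratio is given against a group listed at 0. Other genes of that epithelium were measured beside Sprr3. Krt4 was at most 3.41 FPKM and Krt13 at most 3.34 in every library, with no call for either. Of the 6 such markers, 3 were called higher (against 8.99% of all tested genes) and none lower (against 25.4%). Those called higher were Krt76 (0.788 and 0.90 FPKM in control, 6.08 and 5.77 in knockout epidermis), Mal (0.306 and 1.07, then 3.84 and 4.09) and Krt78 (84.8 and 81.1, then 115 and 134.5). Krt78 was already abundant in control epidermis, so it does not mark internal epithelia alone. The summed FPKM of the 6 was 88.2 and 91.0 in control pups, against 133 and 150.3 in knockout pups, most of it Krt78, and its part in the Sprr3 result was not tested. Sprr4, which is induced in keratinocytes by ultraviolet light, was 7.12 and 11.9 FPKM in the control libraries, compared with 14.8 and 14.6 in the knockout libraries. Both knockouts were above both controls, and the difference was not called (log2 fold change 0.62, SE 0.21, adjusted p = 0.0659 by limma). It was called under median scaling (adjusted p = 0.0323), quantile normalization (0.043) and without the second control (0.0313).

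Lce3 genes are the late envelope genes of damaged and psoriatic skin. All 6 were called higher, with log2 fold changes from 1.97 to 5.64 and a median of 3.88, and their summed FPKM went from 119.5 and 102.3 in control to 1028 and 798 in knockout epidermis. Lce3b (ENSMUSG00000042031.4, chr3:92932979-92934097, plus strand) was 1.20 and 1.34 FPKM in control and 119.9 and 104 in knockout epidermis, rank 6 by rise among all tested genes (log2 fold change 5.64, SE 0.11, adjusted p = 1.16e-05 by limma). Lce3a was 0.473 and 0.343 in control pups, against 52.2 and 44.3 in knockout pups. Lce3a passed the filter on low values only through the knockouts, so a rise was built into its selection. By ratio of means Lce3a (118.3) and Sprr2i (97.9) exceed Lce3b (88.3), and so they do with 0.1 in place of 1 added to FPKM (log2 fold changes 6.58, 6.41 and 6.35), so the order of the largest changes depends on the added value. Both genes were at 1.34 FPKM or less in the controls and were abundant in both knockouts.

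Lce3c was the most abundant Lce3 gene in both genotypes, with 78.6 and 68.7 FPKM in the control libraries, compared with 324 and 263 in the knockout libraries, and had the smallest ratio of means at 3.98. Lce3d was 13.8 and 11.6 in control and 251 and 195 in knockout epidermis, and Lce3e was 19.9 and 17.4 in control pups, against 207 and 131 in knockout pups. Lce3f was 5.44 and 3.0 in the control libraries, compared with 73.9 and 60.5 in the knockout libraries. The genotypes were apart for all 4 genes. Most of the Lce3 FPKM of the controls was that of Lce3c, and the subfamily's summed ratio of 8.23 was lower than that of 5 of its 6 genes. From 28.0% to 45.6% of the 75-base stretches of Lce3c, Lce3d, Lce3e and Lce3f occur in other Lce3 genes, so their individual values are uncertain, while for Lce3a (9.47%) and Lce3b (6.15%) less is shared. The first knockout was above the second for all 6 Lce3 genes and for 18 of all 21 Lce genes, beside 7 of 17 Sprr genes and 57.1% of all tested genes.

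Lce1 genes, the late envelope genes of normal epidermis, did not move together. Lce1m and Lce1c were called lower, Lce1j, Lce1k and Lce1l were called higher, and 9 genes were not called. Lce1m (ENSMUSG00000027912.8, chr3:93017810-93019060, minus strand) was the most abundant member in the controls, with 655 and 614 FPKM, and was 136 and 93.7 in the knockouts (ratio of control to knockout means 5.53, log2 fold change -2.48, SE 0.17, adjusted p = 0.000441 by limma). It had rank 11 by fall among all tested genes and went from rank 1 to rank 18 by mean FPKM among the 38 members. Lce1m stands apart from the other Lce1 genes, 24.4 kb beyond the last Lce3 gene, and shares no 75-base stretch with any gene. In global alignments its upstream bases were 51.2% to 55.6% identical with those of the other Lce1 genes (median 53.5%, 12 pairs), and the other Lce1 genes had a median of 65.2% among themselves (66 pairs). Lce1l, which was called higher, was as far from the other Lce1 genes (50.5% to 57.1%, median 53.3%, 12 pairs), so this identity does not set Lce1m apart.

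The remaining 13 Lce1 genes summed to 2246 and 2159 FPKM in control and 2177 and 2052 in knockout epidermis, so that the lower Lce1 total of the knockouts (2313 and 2145 against 2901 and 2773) came mainly from Lce1m, which held 85.5% of the difference of the means. Along the chromosome their fold changes ran from slightly negative to positive. The first genes of the block were from -0.21 to -0.37 on the log2 scale (Lce1a1, Lce1b, Lce1a2 and Lce1c) and the last 3 were positive, with a Spearman correlation of order with fold change of 0.78 across the 13 genes, which share their libraries and part of their sequence and are not independent. Lce1c, the third most abundant member in the controls, was 314 and 295 FPKM in control pups, against 241 and 231 in knockout pups (log2 fold change -0.37, SE 0.08, adjusted p = 0.0201 by limma). It was not called under median scaling (log2 fold change -0.155, adjusted p = 0.217), nor without the first control (0.131), the second control (0.0884) or the second knockout (0.0645).

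At the other end of the block, Lce1j was 35.2 and 41.6 FPKM in the control libraries, compared with 100.5 and 83.4 in the knockout libraries (log2 fold change 1.24, SE 0.13, adjusted p = 0.00151 by limma). Lce1k was 46.9 and 48.1 in control and 109.8 and 86.0 in knockout epidermis (log2 fold change 1.02, SE 0.13, adjusted p = 0.00276 by limma). Lce1l was 71.7 and 68.4 in control pups, against 89.1 and 103.9 in knockout pups (log2 fold change 0.45, SE 0.10, adjusted p = 0.0183 by limma), a call that was lost without the first control (adjusted p = 0.0991) or the second (0.125). These 3 were the least abundant Lce1 genes in the controls, and the knockouts were above the controls for each. Up to 13.5% of the stretches of an Lce1 gene of this block occur in another one.

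The other 9 Lce1 genes were not called, with log2 fold changes from -0.24 for Lce1a2 to 0.24 for Lce1g. Lce1d, the second most abundant member in the controls, was 324 and 317 FPKM in the control libraries, compared with 295 and 294 in the knockout libraries. Lce1g was 108.9 and 107 in control and 136 and 119.9 in knockout epidermis and was called higher under median scaling (adjusted p = 0.0131) and without the second knockout (0.0463). Lce1a1, Lce1b and Lce1a2 were called lower with TPM (adjusted p = 0.0353, 0.0499 and 0.0451) and under quantile normalization (0.021, 0.0299 and 0.0427), and Lce1d under quantile normalization (0.027). Lce1e and Lce1h overlapped between genotypes. Lce1a1, Lce1b, Lce1a2, Lce1d, Lce1f and Lce1i had both knockouts below both controls, which 55.3% of all tested genes did, and against the general shift of -0.20 they stood close to the median gene. Under median scaling Lce1b, Lce1d, Lce1e and Lce1f turned to between 0.005 and 0.20, so their direction depends on the scaling.

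Lce6a, the single Lce6 gene, lies at the start of the Lce block next to Lce1a1. It was 53.9 and 53.2 FPKM in control pups, against 38.8 and 36.8 in knockout pups (log2 fold change -0.49, SE 0.08, adjusted p = 0.0068 by limma). Both knockouts were below both controls, and the call was lost without the first control (adjusted p = 0.0707) or the second (0.0672).

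**Figure D3:**
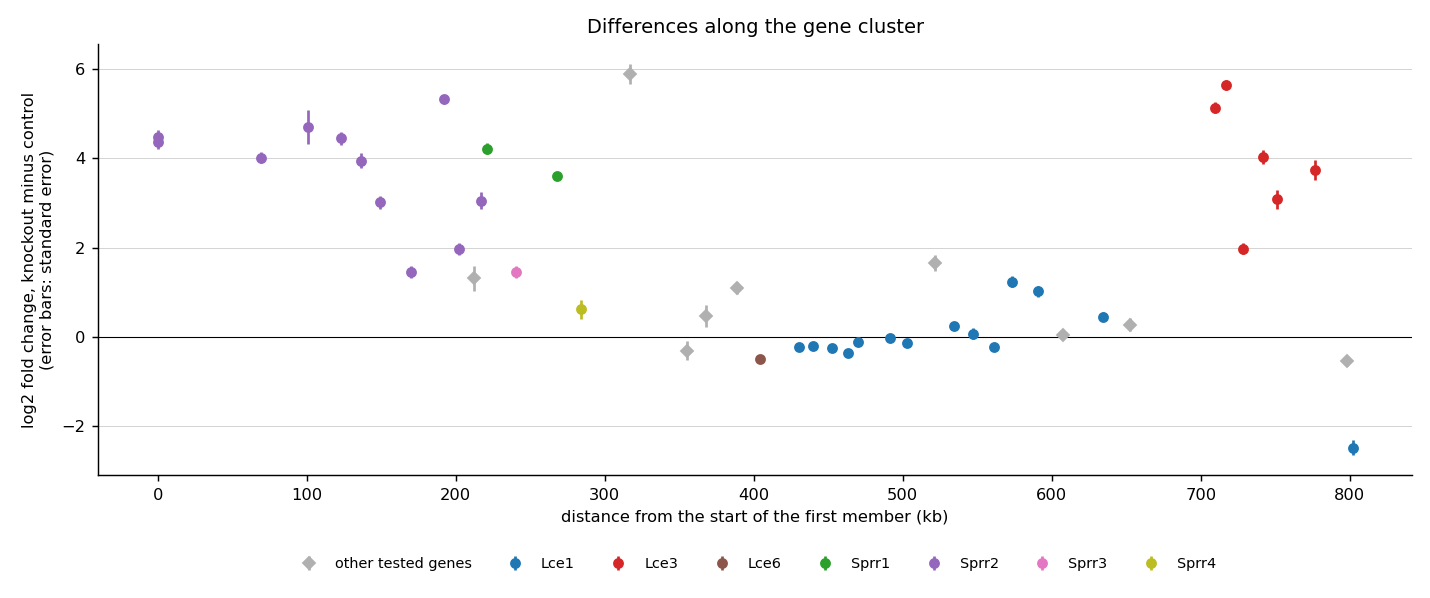
Log2 fold change (knockout minus control) with standard error of each tested member against its distance in kb from the start of the first member, coloured by subfamily, with other tested genes of the region in grey. The Sprr2 and Sprr1 genes at the left and the Lce3 genes near the right end lie well above 0, the Lce1 block between them lies near 0 and rises towards its end, and Lce1m, next to the Lce3 genes, lies at -2.48. The Sprr3 value rests on controls listed at 0 and on the added 1, so it is no ratio of levels.

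The region also holds 9 tested genes that are not members. Of these, 4 were called higher (against 8.99% of all tested genes), 1 lower (against 25.4%) and 4 neither. Gm9774, 2210017I01Rik and Gm38119 were called higher with log2 fold changes of 1.31, 1.10 and 1.65, and the largest rise was that of 2310046K23Rik. 2310046K23Rik, between Sprr4 and Ivl, was 4.82 and 8.53 FPKM in the control libraries, compared with 415 and 469.9 in the knockout libraries. Its log2 fold change of 5.89 exceeded that of every tested member, the largest of which was 5.64 for Lce3b. Its ratio of means of 66.3 was below those of Lce3a (118.3), Sprr2i (97.9) and Lce3b (88.3). Of these, Lce3a passed the filter on low values only through the knockouts. Ivl (involucrin), the classical early envelope precursor, was 102.5 and 98.7 in control and 103.5 and 63.5 in knockout epidermis, with overlapping genotypes. Kprp, which lies within the Lce1 block, was 315 and 326 in control pups, against 323 and 337 in knockout pups, without a call, and Crct1, next to Lce1m, was called lower (log2 fold change -0.54, limma adjusted p = 0.0147). Called and uncalled genes thus lay side by side along the region.

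The other components of the envelope and of the cells that build it did not share one direction. Of 36 such genes 32 were tested, 13 were called higher (against 8.99% of all tested genes), 6 lower (against 25.4% of them, a larger share than among these genes) and 13 neither, with a median log2 fold change of 0.28 beside -0.20 for all tested genes and 1.71 for the members. Rptn, a filaggrin-related envelope precursor, rose from 43.2 and 36.9 FPKM to 1020.0 and 929 (log2 fold change 4.57). Csta1, a cysteine protease inhibitor of the cystatin A type, rose from 71.3 and 71.7 to 194 and 184 (log2 fold change 1.39). Cnfn (cornifelin) rose from 167 and 155 to 359 and 347 (log2 fold change 1.13). Of these only Rptn moved as far as the Sprr2 and Lce3 genes.

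The 3 partners with the largest called falls were Flg2, Tchh and Lor. Flg2, encoding filaggrin-2, fell from 706 and 635 FPKM to 271 and 222 (log2 fold change -1.44, limma adjusted p = 0.000831). Tchh (trichohyalin), which is made mainly in the hair follicle, fell from 10.4 and 13.3 to 4.84 and 4.88. Lor (loricrin), the bulk protein of the envelope, fell from 828 and 867.5 to 448 and 444 (log2 fold change -0.92, limma adjusted p = 0.00109). The cross-linking enzymes Tgm1, Tgm3 and Tgm5 were called higher, with log2 fold changes of 0.54, 0.59 and 1.07. Lor and Lce1m, both abundant late products of normal epidermis, were thus lower in the same libraries in which the Sprr and Lce3 genes were higher. Not all abundant late products were called lower. Flg (filaggrin) was 4087 and 3658 FPKM in control and 3460 and 3053 in knockout epidermis, without a call. Hrnr (hornerin) was 993 and 853, then 1165 and 1047, also without a call.

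Of 46 regulators of keratinocyte differentiation and of envelope genes, 45 were tested, 13 were called higher (8.99% of all tested genes were), 10 lower (25.4% of all tested genes were) and 22 neither, with a median log2 fold change of 0.02. The share called lower was no larger than that of all tested genes. Ehf, an epithelial Ets factor, rose from 7.59 and 7.92 FPKM to 39.2 and 45.2 (log2 fold change 2.30, limma adjusted p = 0.0001). Elf3, another epithelial Ets factor, rose from 3.75 and 3.79 to 9.33 and 20.9 (adjusted p = 0.0126), a call that was lost without the first control (0.0997) or the second (0.0977) and with no filter on FPKM (0.0557). Hopx, a homeodomain-only protein of late differentiation, rose from 56.6 and 48.2 to 122 and 169 (log2 fold change 1.44). Satb1, a chromatin organiser known to act on this gene cluster, fell from 38.5 and 38.6 to 16.5 and 16.5 (log2 fold change -1.18, limma adjusted p = 0.000429). Gata3, a factor for barrier lipids and hair, fell from 70.2 and 70.2 to 32.5 and 41.9, and Ahr, the aryl hydrocarbon receptor, from 18.99 and 20.9 to 9.85 and 11.9. Both of these calls were lost without either control, with adjusted p between 0.0503 and 0.0658.

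AP-1 recognition letters stand in the Sprr1 and 7 of the Sprr2 promoters. Among the AP-1 genes, Junb, Jun and Fosl1 were called higher (limma adjusted p = 0.0435, 0.0207 and 0.0231) and Jund lower (0.0155). Fos, Fosb and Fosl2 were not called. The Junb and other upward calls lay near the threshold of 0.05, and Junb was 107 and 71.9 FPKM in control and 136 and 261 in knockout epidermis. Fos was 103 and 24.6 FPKM in the control libraries, compared with 30.7 and 96.3 in the knockout libraries, so that the controls held both its highest and its lowest value. Nfe2l2, which encodes Nrf2, was 16.2 and 18.97 FPKM in control and 30.7 and 39.3 in knockout epidermis (log2 fold change 0.95, limma adjusted p = 0.00515). Klf4 and Grhl1, factors of the normal barrier program, had log2 fold changes of 0.12 and -0.10 and were not called. These genes were singled out after their values were seen, and no test here ties any of them to a member.

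**Figure D4:**
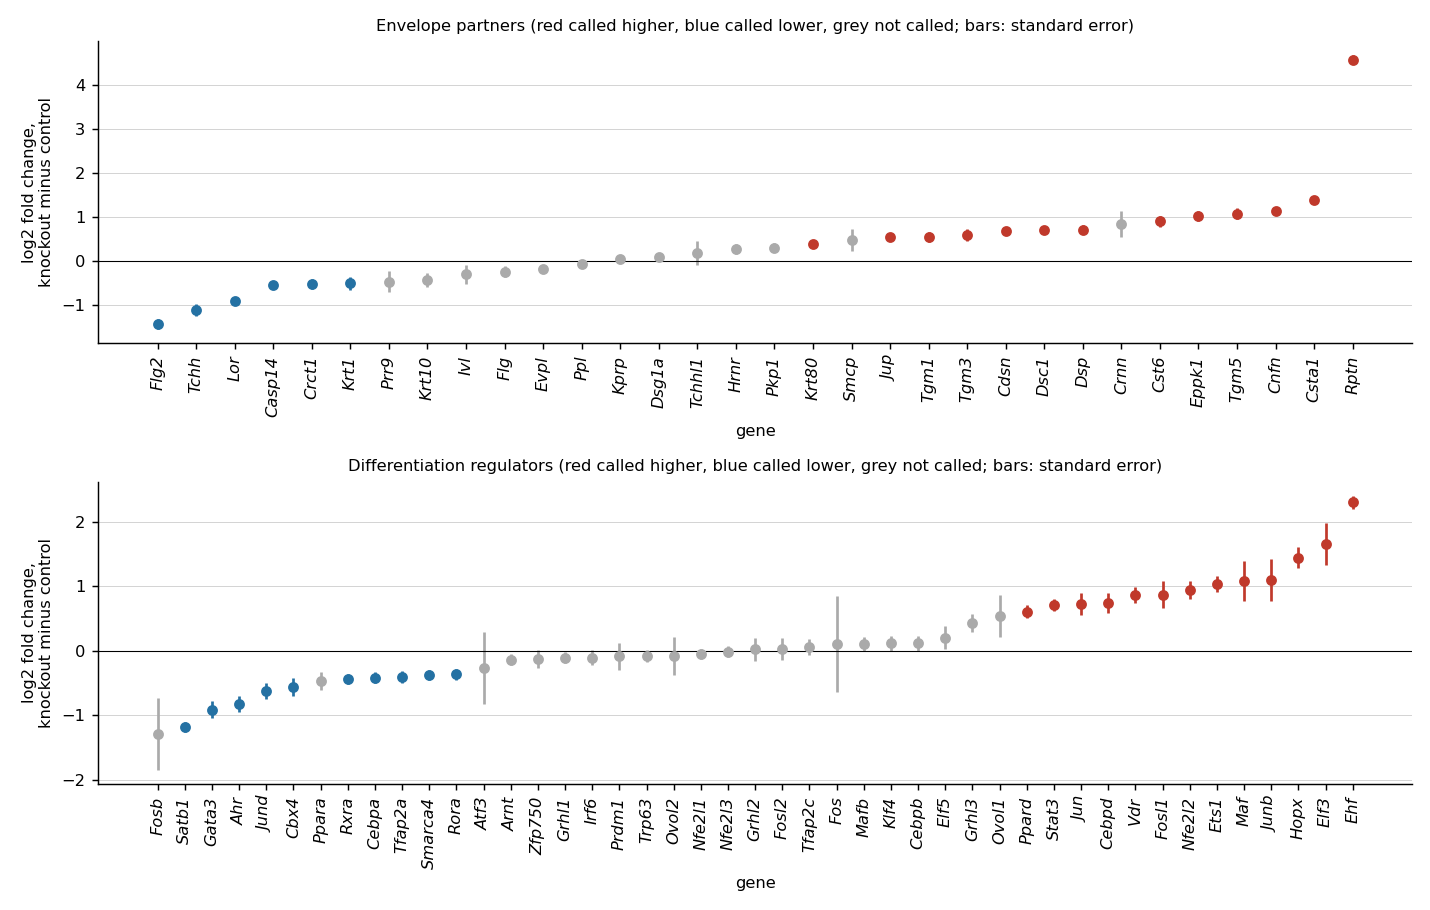
Log2 fold change (knockout minus control) with standard error of the tested envelope partners (top) and differentiation regulators (bottom), in order of size, with called genes in red or blue and the rest in grey. Rptn at 4.57 stands above the other partners, and Flg2 at -1.44 and Ehf at 2.30 mark the ends of their panels apart from Fosb, which was not called.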

How the data were processed

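Total RNA from the epidermis of 4 pups at P0 was sequenced, 2 per genotype. RNA with an integrity number above a fixed cutoff was used, and reads were processed by the authors with the Astrocyte RNASeq workflow. The authors deposited 1 table per pup with FPKM (scaled for transcript length and library size), TPM (scaled to a fixed sum) and coverage (mean read depth of the gene). The build is GRCm38 per the submitters' processing notes. The aligner, read length and strandedness are not given in the sources used here, and no counts were used, so counting error is unknown and the number of pups limits precision.

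FPKM of a gene identifier was summed. Gene types came from GENCODE M21. Log2(FPKM + 1) of the 13609 protein-coding genes above 0.5 FPKM in at least 1 library was tested two-sided with limma 3.58.1 in R 4.3.3 (eBayes with a trend, no block), with Benjamini-Hochberg adjustment, and the code was tested on simulated data. Every member and Skiv2l is named, and of the partners and regulators the 3 largest called rises and 3 largest falls with genotypes apart. Tgm1, Tgm3, Tgm5, Flg, Hrnr, the AP-1 genes, Nfe2l2, Klf4, Grhl1 and the neighbours were chosen for mention once their values were known. The members and lists were chosen with earlier results of these data known. Promoters are from RefSeq (GRCm38.p6), and 75-base stretches were counted on GENCODE M21 transcripts. Alternatives were another pseudocount, filters, TPM, median scaling, quantile normalization, a replicate block, eBayes without a trend, a 2-fold limit and leaving out each library. Leaving Sprr2a2 out of its sum was chosen after seeing the data.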

Additional observations from a re-analysis of the deposited data

Results flagged for a closer look

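Genes of the region outside the protein-coding test were looked at for levels in both knockouts above both controls. Sprr2g, typed as a polymorphic pseudogene, was 0.917 and 0.688 FPKM in control pups, against 13.5 and 13.2 in knockout pups (mean 13.35 in the knockouts). When all genes that pass the filter were tested it was called higher (log2 fold change 3.0, limma adjusted p = 0.000132), and it shares no 75-base stretch with another gene. The processed pseudogene Gm4202 was 17.8 and 18.8 FPKM in both controls, compared with 22.6 and 22.3 in both knockouts (mean 22.45 in the knockouts). The processed pseudogene Rpl13-ps4 was 0.187 and 0.166 in control and 0.378 and 0.643 in knockout epidermis (mean 0.51 in the knockouts).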

How the results depend on the processing

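In all 14 fits, 22 of the 23 members called higher were called higher, Lce1l being the exception, and of the 3 called lower only Lce1m was. The 22 include the 4 genes that passed the filter on low values only through the knockouts. The number of members called lower was 3, and it was 6 with TPM, 7 with quantile normalization, 1 with a 2-fold limit, and 1 to 3 with a library left out, where the lone sample of a genotype is assumed to vary like the others. Leaving out the first or the second control left 1, Lce1m. With a 2-fold limit the partners called higher were 5 and lower 2, and the regulators 6 and 1. Regulators called higher were 8 with no filter, and those called lower 3 under median scaling. With a library left out, partners called higher were 7 to 14 and lower 3 to 6, and regulators 5 to 14 and 1 to 9, lowest in each case without the first control. Skiv2l ranged from -1.08 to -0.77. The log2 ratio of summed FPKM under median scaling was -0.14 for Lce1 (from -0.35), -0.29 for Lce6 (from -0.50, and -0.55 with TPM), 4.17 for Sprr1 (from 3.96) and 4.62 for Sprr2 (from 4.40). With a library left out it was 4.21 to 4.62 for Sprr2 and 0.31 to 1.05 for Sprr4. Median scaling turned Lce1b (0.005), Lce1d (0.09), Lce1e (0.20) and Lce1f (0.073) positive. With a library left out, Lce1e ranged from -0.088 to 0.058 and Lce1h from -0.095 to 0.228. The labels do not say that replicate numbers pair the pups. The deviations of same-numbered pups had a correlation of -0.08, which with 2 pups per genotype cannot show whether they were paired. With a replicate block 24 members were called higher, Sprr4 added, and 3 lower. The cause of these differences was not tested.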
